A study of Mus musculus with 16 samples.

Results

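Neurofilaments are the intermediate filaments of axons, and stathmins are small proteins that bind tubulin dimers and destabilise microtubules. The genes described here are the neurofilament genes Nefl, Nefm, Nefh, Ina and Prph, the stathmin genes Stmn1, Stmn2, Stmn3 and Stmn4, and Gap43, which encodes a growth cone protein. They are 10 of the 18193 genes represented on the arrays. They were chosen by name as gene families, with earlier results of these data known, so the tests below describe these genes and are no independent evidence. Each gene was represented by the brightest of its probe sets over all 16 arrays, out of 19 probe sets in all. The brightness was the only measured value used in this choice.

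Expression was measured in pancreatic islets from 8 mutant and 8 control mice, with 1 array per preparation. All mice carried RIPcreER, a tamoxifen-inducible Cre recombinase under the rat insulin promoter that acts in beta cells, and all received tamoxifen (25 mg, released over 21 days) at 4 to 5 weeks of age. Mutants were RIPcreER; Insm1flox/lacZ and controls RIPcreER; Insm1flox/+. Insm1 encodes a transcription factor with zinc fingers that endocrine cells express. Islets were collected at 8 to 12 weeks. The mice descended from the strains CBA/J, C57BL/6 and 129/ola, and controls were matched by litter. The floxed allele could be deleted in both groups, so controls kept 1 wild-type allele of Insm1 in beta cells, and the lacZ allele was carried by all cells of the mutants. The measured beta cell markers, 8 in all, had mean signals above the array medians. Of these 8, 6 were called lower in the mutant and 0 higher, with a median difference of −0.36, among them Ucn3 (−1.37), Slc2a2 (−0.89) and Pdx1 (−0.56; limma, adjusted p = 1.79e-05, 0.000827 and 2.9e-05). Of 9 alpha, delta and PP cell markers, 2 were called higher and 0 lower, namely Irx2 (0.75) and Irx1 (0.54; limma, adjusted p = 0.00791 and 0.00972). Called in either direction were thus 75% of the beta cell markers and 22.2% of these 9, beside 8.76% of all genes. The part of these marker shifts in the differences of the 10 genes was not tested.

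Values are log2 signals of probe sets, differences are mutant minus control, with 8 arrays in each group (n = 8). Precision is limited by that number. The threshold for a call was an adjusted p of 0.05 over all 18193 genes (limma). Insm1 itself was not called, with a signal of 11.26 ± 0.23 (SD, n = 8) in controls against 11.02 ± 0.22 in mutants (limma, adjusted p = 0.182). Whether its probes lie in the floxed region was not known here, and its signal therefore does not check the genotypes. Array medians lay between 6.29 and 6.35, and signals below them are compressed by background. Acinar cells, the enzyme-secreting cells around islets, gave lower marker signal in mutant preparations, with a mean of 10.81 ± 1.65 (SD) against 12.33 ± 0.92 over 17 markers, and lower in 8 of 8 pairs of arrays with the same replicate number. That difference had an adjusted p of 0.139 by the exact permutation test over all splits and 0.0273 within pairs, and 1 of the 17 markers was called lower, or all 17 with the replicate number as a block in the fit. The mean of 6 ductal markers was also lower in 8 of 8 pairs, by −0.34 (adjusted p = 0.0783 and 0.0273 by the same exact tests). The means of 17 immune markers and of 14 endothelial and stromal markers were higher in the mutant by 0.46 and 0.13 (exact permutation test over all splits, adjusted p = 0.406 and 0.356). Of the latter, Dcn (1.29) and Col1a2 (0.60) were called higher and Acta2 (−0.98) lower (limma, adjusted p = 0.00814, 0.0145 and 0.0105). In such bulk samples, fewer cells of a type and less RNA per cell cannot be told apart.

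Neurofilaments assemble from a light, a medium and a heavy subunit, encoded by Nefl, Nefm and Nefh, often with alpha-internexin (Ina) or peripherin (Prph). Peripherin is characteristic of peripheral neurons. Stmn1 is the widely expressed cytosolic stathmin and is abundant in dividing cells, whereas Stmn2, Stmn3 and Stmn4 are membrane-attached forms typical of neurons. Endocrine islet cells share part of the neuronal expression programme, and islets are also reached by autonomic nerves.

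In mutant islets Nefm rose and Nefh fell, and the other 8 genes were not called. The 2 calls were close to the threshold. In all, 1 of 10 genes was called higher and 1 lower, beside 4.1% of all genes called higher, 4.66% lower and 8.76% in either direction. With the replicate number as a block in the fit, 3 were called higher (Nefm, Stmn1 and Stmn3) and 1 lower (Nefh), beside 7.88%, 9.71% and, in either direction, 17.6% of all genes. Differences were above 0 for 8 of the 10 and below 0 for 2, with a median of 0.43 against −0.01 for all genes. The share of all genes above 0 was not counted. The 10 genes are not separate observations, since Nefl, Prph, Stmn2 and Gap43 varied together and were all highest on mutant replicate 5. Without that array their differences were 0.17, 0.13, −0.04 and 0.29. The groups overlapped for every one of the 10 genes, and 2.29% of all genes had groups that did not overlap.

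**Figure D1:**
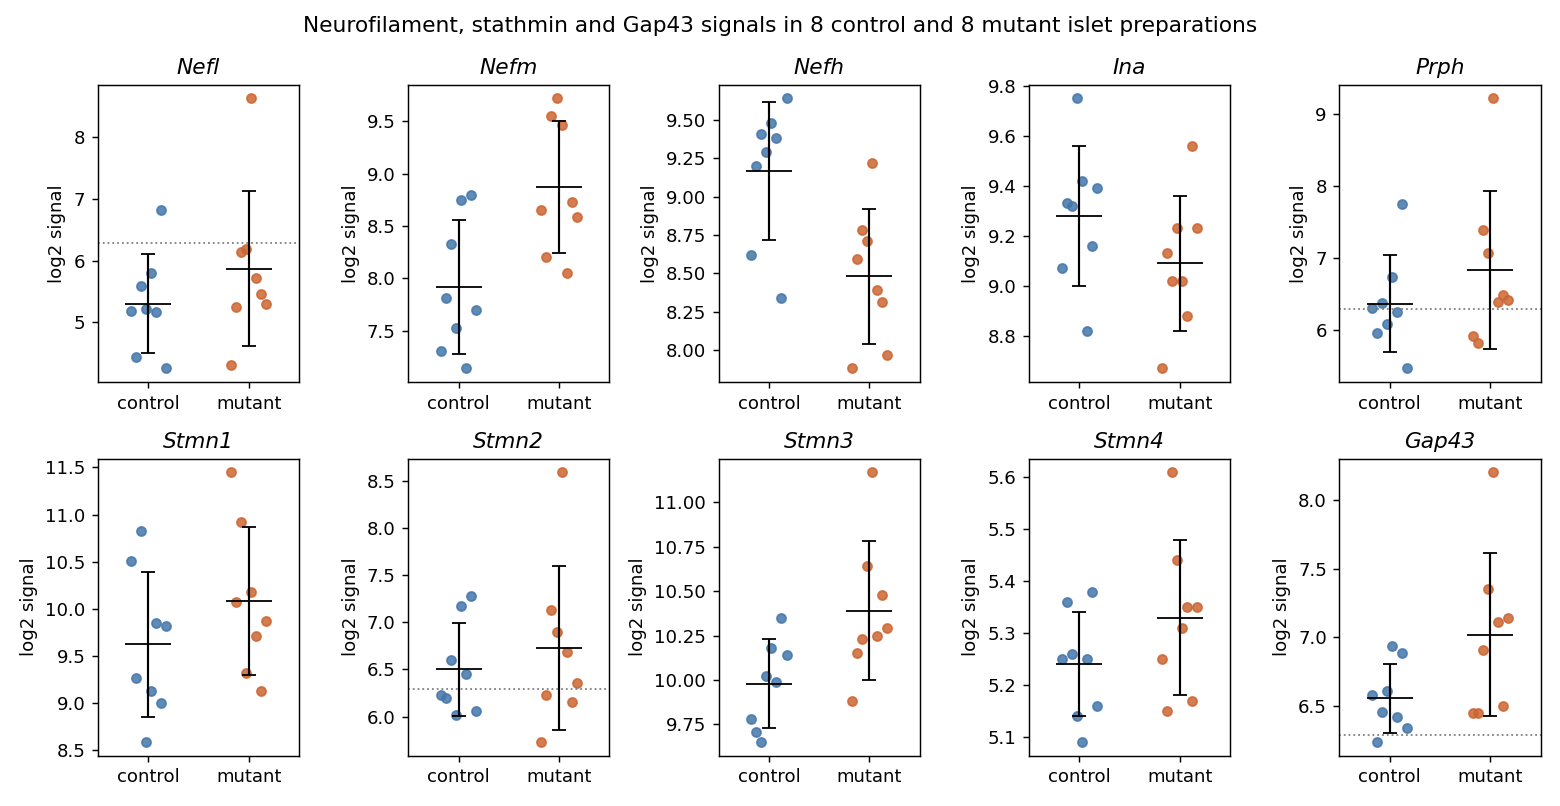
Log2 signal (y axis) of the brightest probe set of each of the 10 genes in 8 control and 8 mutant preparations (x axis, 1 point per array), with the mean and SD of each group in black and the lowest array median, 6.29, as a dotted line where it falls within the panel. Nefm was higher and Nefh lower in mutants, whereas single arrays stand far above the rest for Nefl, Prph, Stmn2 and Gap43.

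Nefm, the medium subunit, ranged from 7.14 to 8.80 in controls, with a median of 7.75, and from 8.05 to 9.72 in mutants, with a median of 8.69. The groups overlapped. Control replicates 3, 5 and 7, at 8.33, 8.75 and 8.80, lay within the range of the mutants, and 5 of the 8 mutants lay below the highest control. The means were 7.92 ± 0.64 (SD, n = 8) and 8.87 ± 0.63. The difference was 0.95 ± 0.29 (SE), a 1.93-fold rise, and Nefm was higher in the mutant in 7 of 8 pairs (limma, adjusted p = 0.0488). The exception was pair 7, with 8.80 in the control and 8.73 in the mutant.

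Nefh, the heavy subunit, moved the other way. It ranged from 8.34 to 9.64 in controls, with a median of 9.33, and from 7.88 to 9.22 in mutants, with a median of 8.49. Control replicates 1 and 7, at 8.62 and 8.34, lay among the mutant values, and the other 6 controls read 9.20 or more. Only mutant replicate 5, at 9.22, reached that level. The means were 9.17 ± 0.45 (SD, n = 8) and 8.48 ± 0.44. The difference was −0.69 ± 0.20 (SE), a 1.61-fold fall, in the same direction in 8 of 8 pairs (limma, adjusted p = 0.0445).

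Within each array, the signal of Nefm minus that of Nefh shifted between the groups. The 2 genes were called in opposite directions, so such a shift follows from the calls and adds no evidence to them. Since probe sets differ in brightness, only the shift can be read and not the sign. This difference ran from −2.24 to 0.46 in controls, with a median of −1.35, and from −0.39 to 1.01 in mutants, with a median of 0.52. All 8 mutant arrays lay above 7 of the 8 controls, and control replicate 7, the highest control at 0.46, lay among them.

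**Figure D2:**
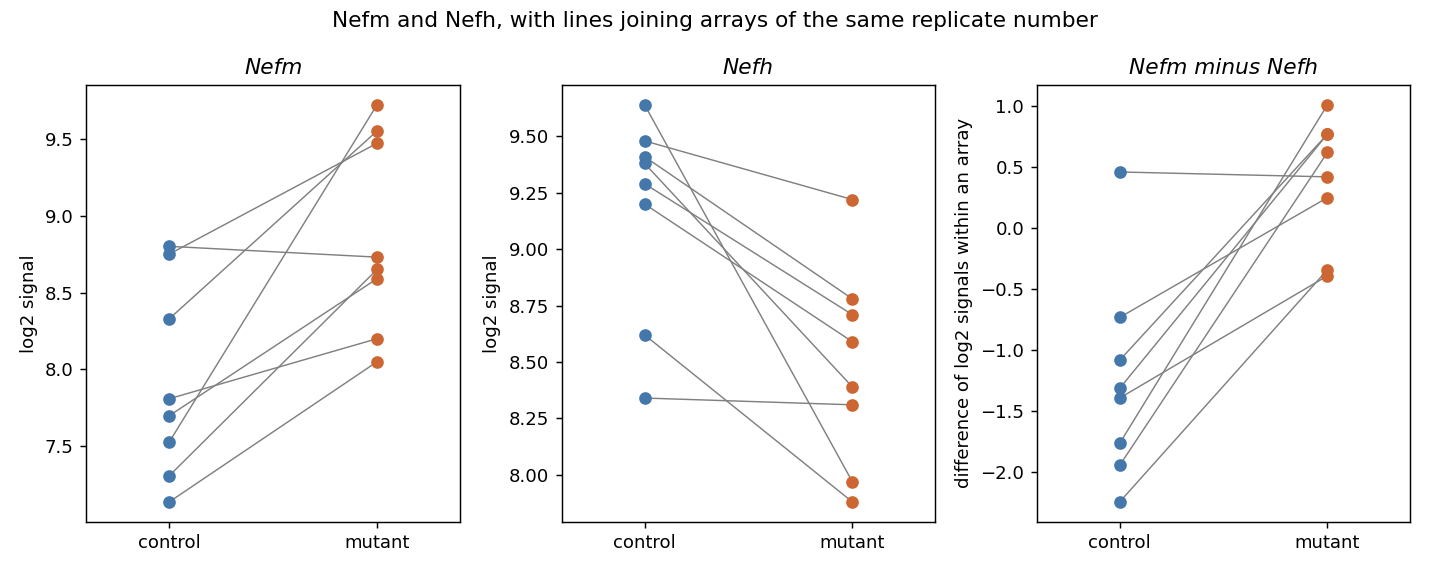
Log2 signal of Nefm and Nefh and the difference of both within an array (y axes) in control and mutant arrays (x axis), with grey lines joining arrays of the same replicate number. Nefm was higher in the mutant in 7 of 8 pairs and Nefh lower in 8 of 8.

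Both calls were lost when any of several single arrays was left out, with differences of similar size. The call of Nefm was lost in 12 of 16 fits that left out 1 array, namely those lacking mutant replicates 1, 3, 4, 5, 7 and 8 and control replicates 1, 2, 3, 4, 6 and 8 in turn, with differences between 0.83 and 1.08 over the 16 fits and adjusted p (limma) between 0.0268 and 0.0978. That of Nefh was lost in 12 fits as well, lacking mutant replicates 1, 2, 4, 6, 7 and 8 and control replicates 2, 3, 4, 5, 6 and 8 in turn, with differences between −0.81 and −0.60 and adjusted p between 0.0124 and 0.0887. With the replicate number as a block, the adjusted p-values (limma) were 0.00623 for Nefm and 0.00718 for Nefh. With that block and the acinar marker mean as a covariate, the differences were 0.84 ± 0.40 and −0.45 ± 0.29 (SE). Neither was called (limma, adjusted p = 0.314 and 0.464). The SEs with the block alone were 0.19 and 0.14. Every mutant array had less acinar signal than its paired control, so this fit separates genotype from acinar signal poorly. When pairs 1 to 3, whose mutant arrays were high in immune marker signal, were left out, the differences were 0.93 ± 0.38 and −0.71 ± 0.27 (SE). Both were again not called (limma, adjusted p = 0.229 and 0.183).

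Nefl, the light subunit, is the nearest protein-coding neighbour of Nefm in the RefSeq annotation of GRCm38.p6. Its mean over all arrays, 5.59, was below the array medians. It ranged from 4.25 to 6.82 in controls, with a median of 5.20, and from 4.30 to 8.63 in mutants, with a median of 5.58. The lowest values of both groups were alike, and the highest mutant value came from replicate 5 alone, with the next mutant at 6.19. The difference was 0.57 ± 0.48 (SE, limma, adjusted p = 0.563), with a 95% interval from −0.44 to 1.58. Without mutant replicate 5 it was 0.17. The second probe set differed by 0.89 ± 0.39 (limma, adjusted p = 0.205 over probe sets).

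Ina, encoding alpha-internexin, ranged from 8.82 to 9.75 in controls, with a median of 9.32, and from 8.67 to 9.56 in mutants, with a median of 9.07. The difference was −0.19 ± 0.13 (SE, limma, adjusted p = 0.436). Its 2 other probe sets differed by −0.30 ± 0.09 and −0.24 ± 0.09 (limma, adjusted p = 0.0681 and 0.149 over probe sets). All 3 were thus lower on average in the mutant, by 0.30 or less, and none was called. With the replicate block both of these other probe sets were called lower (limma, adjusted p = 0.0163 and 0.046 over probe sets), each lower in 7 of 8 pairs, while the brightest was not (0.213).

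Prph, encoding peripherin, ranged from 5.46 to 7.75 in controls, with a median of 6.27, and from 5.81 to 9.21 in mutants, with a median of 6.44. As for Nefl, mutant replicate 5 had the highest value and control replicate 7 the second highest. The difference was 0.47 ± 0.41 (SE, limma, adjusted p = 0.576), and 0.13 without mutant replicate 5. The 3 other Prph probe sets differed by −0.14, 0.12 and −0.01 and had SDs within groups of 0.09 to 0.20, against 0.67 and 1.10 for the brightest one.

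RefSeq promoter windows, from 250 bases before to 50 bases after a transcription start on GRCm38.p6, were at hand for 3 of the 10 genes, and are shown because Rest, a repressor of neuronal genes whose binding element holds TTCAGCACC and GGACAG, was higher in the mutant, with values given beside its targets. Both motifs, the E-box CAGNTG that proteins such as Neurod1 bind, and TATAAA were searched on both strands, and capitals mark every match. The window of Ina lies at chr19:47014431-47014730 on the plus strand, that of Prph at chr15:99054924-99055223 on the plus strand and that of Stmn3 at chr2:181314451-181314750 on the minus strand.
Ina: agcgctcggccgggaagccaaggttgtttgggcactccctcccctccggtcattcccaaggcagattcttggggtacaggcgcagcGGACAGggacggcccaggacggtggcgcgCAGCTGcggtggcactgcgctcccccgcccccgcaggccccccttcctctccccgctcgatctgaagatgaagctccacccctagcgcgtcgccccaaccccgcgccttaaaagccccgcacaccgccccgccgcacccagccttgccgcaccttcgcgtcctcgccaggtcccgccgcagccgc
Prph: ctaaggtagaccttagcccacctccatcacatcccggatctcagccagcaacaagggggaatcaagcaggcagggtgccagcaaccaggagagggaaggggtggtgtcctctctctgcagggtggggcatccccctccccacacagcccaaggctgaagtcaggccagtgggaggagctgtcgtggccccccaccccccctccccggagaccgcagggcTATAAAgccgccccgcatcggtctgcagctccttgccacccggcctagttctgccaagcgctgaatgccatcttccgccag
Stmn3: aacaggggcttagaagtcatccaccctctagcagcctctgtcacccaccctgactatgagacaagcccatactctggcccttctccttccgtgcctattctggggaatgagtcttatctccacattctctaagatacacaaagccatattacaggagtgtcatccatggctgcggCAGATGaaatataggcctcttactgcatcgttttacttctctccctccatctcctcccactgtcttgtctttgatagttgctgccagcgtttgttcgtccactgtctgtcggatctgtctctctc

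The window of Ina held GGACAG, starting 164 bases before the start site, and CAGCTG, an E-box that reads the same on both strands, 135 bases before it. It was rich in G and C (71.7%) with 32 CG dinucleotides. That of Prph held TATAAA 31 bases before the start site and 10 CG dinucleotides. That of Stmn3 held CAGATG 75 bases before the start site and 6 CG dinucleotides. Of all 32851 RefSeq windows of this length, 22.2% held GGACAG, 0.371% TTCAGCACC, 51.4% CAGNTG and 13.6% TATAAA. These matches are a description of letters, and no binding was measured.

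The 4 stathmin genes all had mean differences above 0, and none was called. Stmn3, the neuronal stathmin also known as SCLIP, ranged from 9.65 to 10.35 in controls, with a median of 10.01, and from 9.88 to 11.17 in mutants, with a median of 10.27. The mutant was higher in 8 of 8 pairs, although the groups overlapped. The difference was 0.41 ± 0.15 (SE, limma, adjusted p = 0.109), and with the replicate block Stmn3 was called (limma, adjusted p = 0.0111, SE 0.09). It was also called in 1 of 16 fits without 1 array, the one lacking mutant replicate 1 (0.48, limma, adjusted p = 0.049). Without mutant replicate 5, the highest array for Stmn3, the difference was 0.30 (limma, adjusted p = 0.153). The second probe set differed by 0.35 ± 0.16 and was higher in 7 of 8 pairs (limma, adjusted p = 0.22 over probe sets). With the replicate block this second probe set was not called (limma, adjusted p = 0.0704 over probe sets). The suffix of the brighter probe set, _x_at, marks possible cross-hybridisation.

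Stmn1 ranged from 8.58 to 10.82 in controls, with a median of 9.54, and from 9.12 to 11.45 in mutants, with a median of 9.97. The spread within groups, with SDs of 0.77 and 0.79, was larger than the difference of 0.46 ± 0.35 (SE, limma, adjusted p = 0.519), which was 0.26 without mutant replicate 1. The mutant was higher in 7 of 8 pairs, and with the replicate block Stmn1 was called (limma, adjusted p = 0.0415). The second probe set differed by 0.25 ± 0.31 and was higher in 5 of 8 pairs (limma, adjusted p = 0.735 over probe sets). With the replicate block this second probe set was not called (limma, adjusted p = 0.415 over probe sets). The brighter one carries the suffix _s_at, which marks probes shared by several transcripts.

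Stmn2, also known as SCG10 and involved in axon growth, ranged from 6.02 to 7.28 in controls, with a median of 6.34, and from 5.73 to 8.59 in mutants, with a median of 6.53. Mutant replicate 5 was again the highest and control replicate 7 the second highest. The difference was 0.22 ± 0.32 (SE, limma, adjusted p = 0.761), and −0.04 without mutant replicate 5. The second Stmn2 probe set, with a mean of 6.56 over all arrays against 6.61, differed by 0.60 ± 0.40. It was higher in 6 of 8 pairs and not called (limma, adjusted p = 0.453 over probe sets). Stmn4, also known as RB3, was dim, from 5.09 to 5.38 in controls and from 5.15 to 5.61 in mutants. Its difference was 0.09 ± 0.07 (SE, limma, adjusted p = 0.472).

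Gap43 ranged from 6.24 to 6.94 in controls, with a median of 6.52, and from 6.45 to 8.20 in mutants, with a median of 7.01. Of the mutants, 4 (replicates 4, 5, 6 and 8) lay above the highest control. The difference was 0.45 ± 0.21 (SE, limma, adjusted p = 0.213), and Gap43 was higher in 6 of 8 pairs. It was 0.29 without mutant replicate 5, and −0.04 with the replicate block and the acinar marker mean as a covariate (limma, adjusted p = 0.303 and 0.959).

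**Figure D3:**
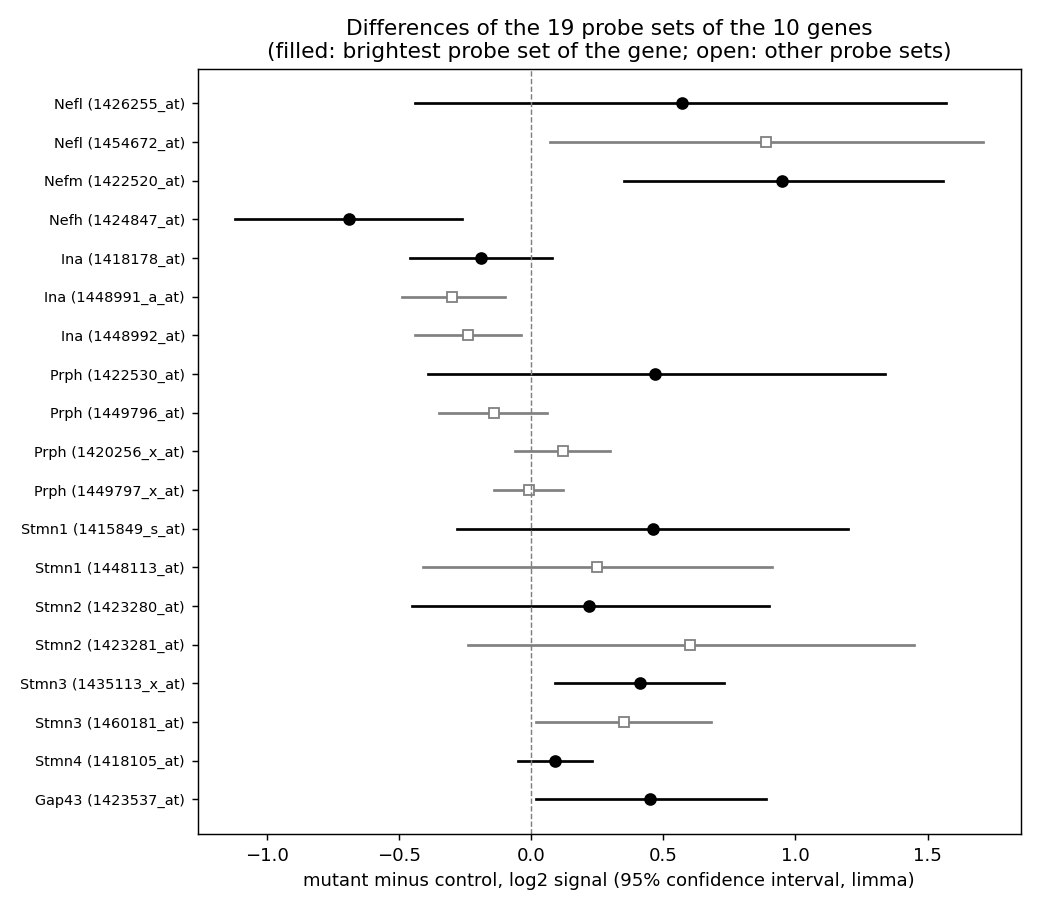
Mutant minus control difference in log2 signal (x axis) with its 95% confidence interval for each of the 19 probe sets (y axis), with filled points for the brightest probe set of a gene and open squares for the others. Differences were above 0 for 13 probe sets and below 0 for 6, and the intervals of Nefl, Prph, Stmn1 and Stmn2 are wide.

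Between preparations of one genotype, Nefl, Prph, Stmn2 and Gap43 varied together. Mutant replicate 5 was the highest of all 16 arrays for these 4 genes and for Stmn3, with 8.63 for Nefl, 9.21 for Prph, 8.59 for Stmn2, 8.20 for Gap43 and 11.17 for Stmn3. Control replicate 7 was second for Nefl, Prph and Stmn2, with 6.82, 7.75 and 7.28. After subtraction of each group mean, Nefl correlated with Prph at a Pearson r of 0.96 (Spearman rho 0.93) and with Stmn2 at 0.95 (rho 0.86) over the 16 arrays. Without mutant replicate 5 and control replicate 7, r was 0.87 and 0.86. These are descriptions over arrays in which all genes share the RNA preparation. Nefm followed Prph less closely (r = 0.67, rho = 0.70), Nefh and Nefl had an r of 0.29 (rho 0.34), and Nefm and Nefh one of 0.20 (rho 0.28).

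**Figure D4:**
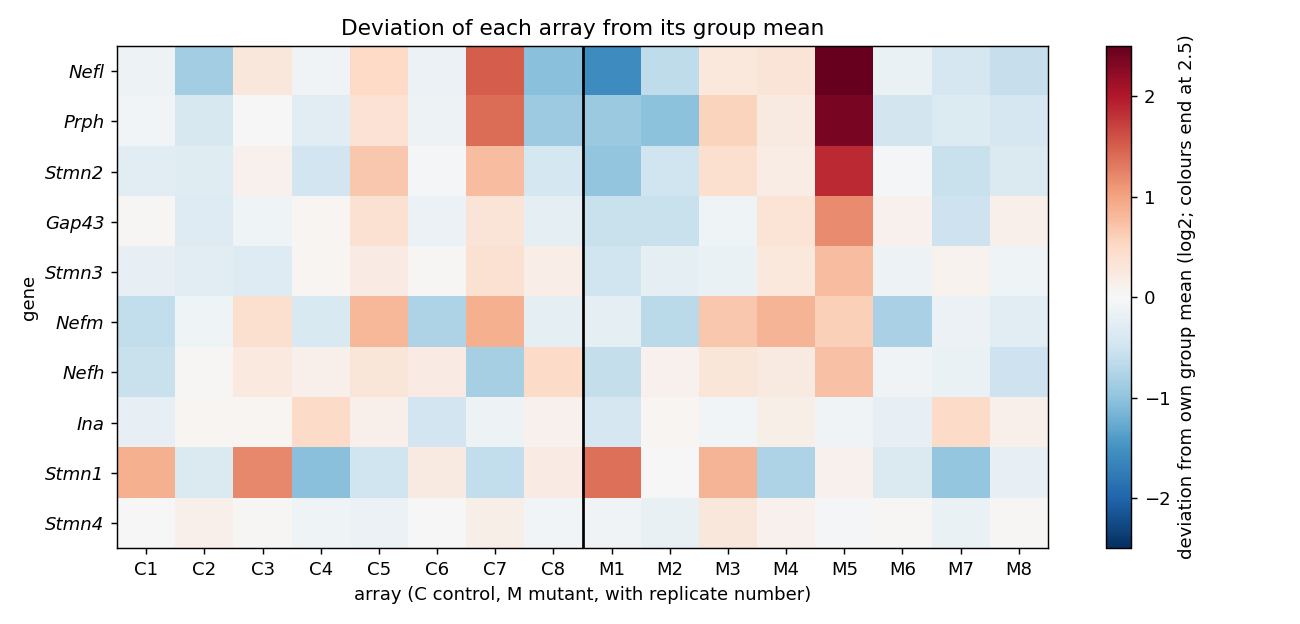
Deviation of each array from its own group mean in log2 units (colour, red above and blue below the mean) for the 10 genes (rows) in 8 control (C) and 8 mutant (M) arrays (columns). Nefl, Prph, Stmn2 and Gap43 are above the mean together in mutant replicate 5 and control replicate 7, and Stmn1 has a different pattern, with its highest values in mutant replicates 1 and 3 and control replicates 1 and 3.

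Markers of autonomic neurons, whose ganglia lie in the pancreas, varied with the same genes. Their mean over 13 markers ran from 6.14 to 7.03 in controls and from 6.17 to 7.36 in mutants, and 0 of 13 were called. With the replicate block 1 was called, Elavl4, lower by −0.37 (limma, adjusted p = 0.00785). The highest arrays were again mutant replicate 5 (7.36) and control replicate 7 (7.03). Mutant replicate 5 had the highest value of 9 of the 13 markers, among them the peptide gene Vip (11.94, against 4.87 to 10.75 on arrays other than these 2), Uchl1 (9.22, against 6.47 to 7.72) and the transcription factor gene Hand2 (8.53, against 6.02 to 7.36). The signals of Chat, Slc5a7 and Slc18a3, which define cholinergic neurons, were the highest there too but dim (4.92, 4.74 and 5.09). Not every marker was high there. Elavl3 had its lowest value of the 16 arrays on mutant replicate 5 (6.48), and Dbh (8.17) and Elavl4 (8.88) ranked 12 and 9 of 16 from the top. Uchl1, Elavl4 and Dbh on this list can also be expressed by endocrine cells.

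The deviations of the neuron marker mean correlated with those of Nefl at r = 0.96 (rho 0.91), of Prph at 0.95 (rho 0.89), of Stmn2 at 0.94 (rho 0.91) and of Gap43 at 0.84 (rho 0.78) over 16 arrays. Without mutant replicate 5 and control replicate 7, r was 0.92, 0.88, 0.88 and 0.69. The markers were not scaled before averaging. Vip, with the largest SDs of the list (2.01 in controls and 1.94 in mutants), therefore weighs most in the variation of that mean. For Stmn3, r was 0.76 (rho 0.61, and r = 0.44 without these 2 arrays). For Nefm, r was 0.60 (rho 0.53, and r = 0.45 without these 2 arrays), for Nefh 0.21 (rho 0.26) and for Ina −0.07 (rho −0.11). With the neuron marker mean as a covariate, the differences of Nefl, Prph and Stmn2 were 0.21, 0.17 and −0.01. Those of Nefm and Nefh were 0.82 and −0.72, both called (limma, adjusted p = 0.0435 and 0.0387). Without pairs 5 and 7, Nefm differed by 1.16 and Nefh by −0.87, both called (limma, adjusted p = 0.0353 and 0.017). Both of these fits were chosen after seeing the data, and the part of nerve cells in the differences of these genes was not tested. The mean of the neuron markers differed by 0.11 between the genotypes (exact permutation test over all splits, adjusted p = 0.504). That of 11 Schwann cell markers, the glia of peripheral nerves, differed by 0.17 (exact permutation test, adjusted p = 0.211), with 0 of 11 called. With the replicate block 1 was called, Cnp, higher by 0.48 and in 8 of 8 pairs (limma, adjusted p = 0.023).

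Stmn1 varied with genes of dividing cells. The mean of 13 proliferation genes ran from 6.33 to 8.32 in controls and from 6.63 to 9.29 in mutants, and 0 of 13 were called. Mutant replicates 1 and 3 and control replicates 3 and 1 had the 4 highest proliferation means (9.29, 8.61, 8.32 and 8.00) and the 4 highest Stmn1 signals (11.45, 10.92, 10.82 and 10.51). The deviations correlated at r = 0.93 (rho 0.91), and at 0.88 without mutant replicate 1 and control replicate 3. Control replicate 3 had a low immune marker mean (6.63), whereas those of the other 3 arrays were the highest of all (9.09 and 8.67 for the mutants, 8.07 for the control). Stmn1 also correlated with the immune marker mean, at r = 0.74 (rho 0.69, and r = 0.55 without mutant replicates 1 and 3), and with that mean as a covariate its difference was 0.14 (limma, adjusted p = 0.835). With the proliferation mean as a covariate, added after seeing the data, the difference of Stmn1 was 0.21 ± 0.14 (SE, limma, adjusted p = 0.404), and Stmn3 was called (0.49 ± 0.11, limma, adjusted p = 0.00763) while Nefh was not (−0.66, limma, adjusted p = 0.0513).

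**Figure D5:**
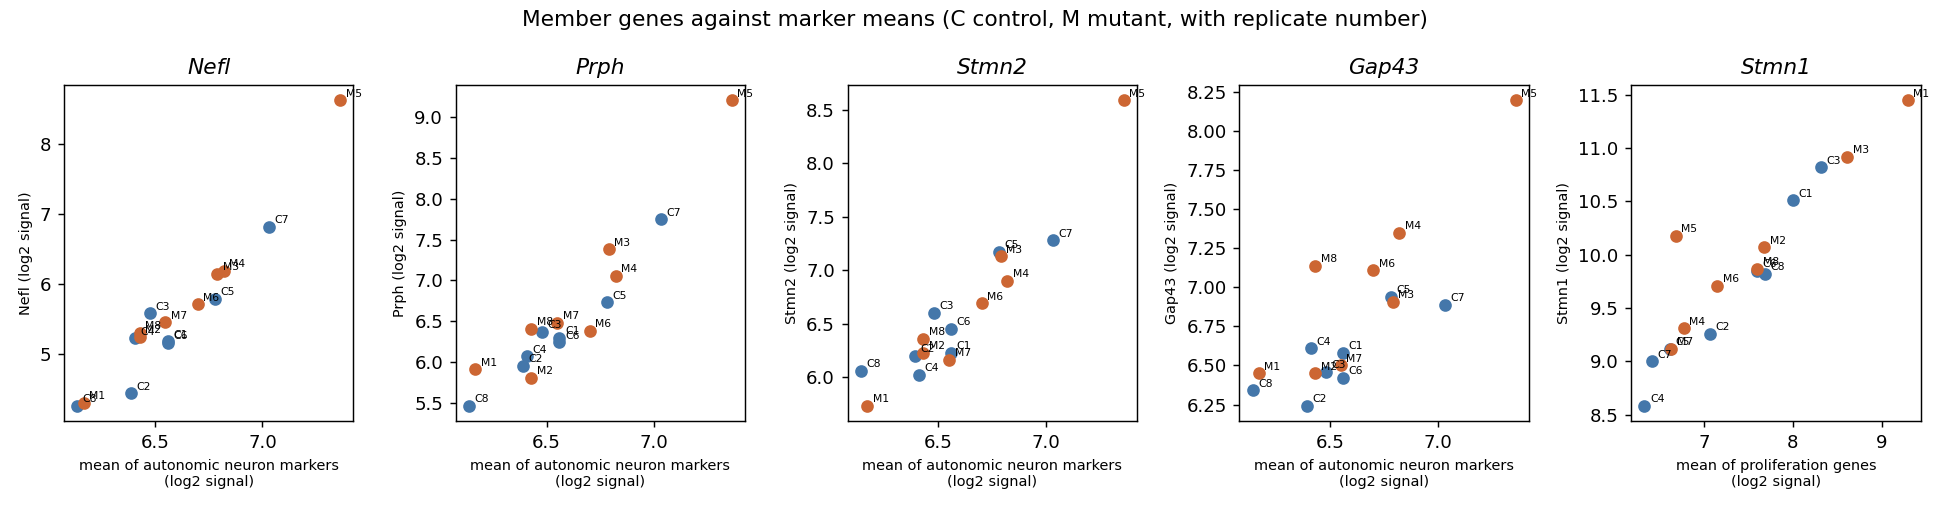
Log2 signal of Nefl, Prph, Stmn2 and Gap43 (y axes) against the mean of 13 autonomic neuron markers, and of Stmn1 against the mean of 13 proliferation genes (x axes, log2 signal), with 1 point per array labelled C (control) or M (mutant) and replicate number. Mutant replicate 5 and control replicate 7 lie at the upper right for Nefl, Prph and Stmn2, and mutant replicates 1 and 3 with control replicates 1 and 3 for Stmn1.

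Of the genes measured at or above the lowest array median, 11688 were ranked by how closely their deviations followed those of the called genes over 16 arrays. For Nefm the closest were Slc39a14 (r = 0.88), a zinc transporter gene, Ckb (r = 0.88), brain creatine kinase, and Mapk8ip3 (r = 0.86), a scaffold for axonal transport. Their own differences, −0.08, 0.49 and −0.09, were not called (limma, adjusted p = 0.84, 0.31 and 0.509). For Nefh they were Nova1 (r = 0.81), a neuronal splicing factor gene, Bicdl1 (r = 0.80) and Zfp213 (r = 0.78). For both genes these are the highest of 11688 correlations over only 16 arrays. Picking the highest of so many gives high values by itself, and these were not tested against chance. Nova1 rose by 0.33 ± 0.10 (SE, limma, adjusted p = 0.0476), opposite to Nefh, although its deviations within the groups followed those of Nefh.

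Lists of related genes are described by their counts, beside the 8.76% of all genes called in either direction and the 17.6% with the replicate block. Of 19 tubulin and microtubule genes, 1 rose and 1 fell, and the median difference was −0.01 (2 and 2 were called with the replicate block). The share called, 10.5%, was near that of all genes. The beta-tubulin gene Tubb2b went from 7.66 ± 0.56 (SD, n = 8) to 8.69 ± 0.65, a 2.04-fold rise (limma, adjusted p = 0.0257). That call was lost without mutant replicate 4, control replicate 2 or control replicate 8, and with the acinar mean as a covariate (0.99, limma, adjusted p = 0.0648). Tubb2b was higher in the mutant in 8 of 8 pairs and called with the replicate block (limma, adjusted p = 3.59e-05). Kif1a, a motor of axonal vesicle transport, fell by 0.29 ± 0.08 (SE, limma, adjusted p = 0.0283), a call lost without mutant replicate 2 or control replicate 5, 7 or 8 and with the immune mean as a covariate (limma, adjusted p = 0.0504). Kif1a was called with the replicate block (limma, adjusted p = 0.011). The neuronal tubulin gene Tubb3 differed by −0.29 ± 0.31 and Dcx, doublecortin, by −0.01 ± 0.21 (limma, adjusted p = 0.661 and 0.989).

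Of 13 other intermediate filament genes, 0 rose and 1 fell (7.69%), and the median was −0.08 (0 and 3 were called with the replicate block). The one called was Krt19, a keratin typical of ductal cells, at −0.95 ± 0.22 (SE, limma, adjusted p = 0.0113). The ductal marker mean was also lower, with 1 of 6 ductal markers called lower (Pkhd1) and 5 not called. The ductal markers not called were all lower on average, from −0.14 for Sox9 to −0.35 for Muc1 (limma, adjusted p = 0.538 and 0.484). The keratin gene Krt7 differed by −0.01, Krt8 by −0.28 and Krt18 by −0.16 (limma, adjusted p = 0.985, 0.129 and 0.282). With the replicate block Krt8 and Krt18 were called lower (limma, adjusted p = 0.00976 and 0.0465). The part of ductal cells in the fall of Krt19 was not tested. Vim, encoding vimentin, differed by 0.23 ± 0.20 (limma, adjusted p = 0.563). The neurofilament linkers, kinases and turnover genes had 6 measured members, of which 1 rose and 0 fell (16.7%), with a median of 0.04. This was Cdk5r1, which encodes the p35 activator of the neurofilament kinase Cdk5, from 7.93 ± 0.23 (SD) to 8.83 ± 0.27, a 1.88-fold rise (limma, adjusted p = 8.92e-05). Averaged over its probe sets, the log2 difference of Cdk5r1 was 0.46 in place of 0.91 and still called.

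Of 22 growth cone and axon growth genes, 2 rose and 2 fell (18.2%), and the median was 0.22 (8 and 2 were called with the replicate block). Tmsb10, an actin monomer binding thymosin, was 1.54-fold higher (limma, adjusted p = 0.000107) and the actin-binding drebrin gene Dbn1 1.35-fold higher (adjusted p = 0.011). The guidance receptor gene Robo1 was 1.65-fold lower (adjusted p = 0.00314) and the adhesion gene Cntn1 1.51-fold lower (adjusted p = 0.0363). Averaged over their probe sets, the log2 differences of Robo1 and Tmsb10 were −0.26 in place of −0.72 and 0.41 in place of 0.62, both still called. The call of Cntn1 was lost in 10 of 16 fits without 1 array (mutant replicates 1, 2, 3, 4 and 7 and control replicates 1, 2, 6, 7 and 8) and with the immune mean as a covariate (−0.49, limma, adjusted p = 0.063). Cntn1 was called with the replicate block (limma, adjusted p = 0.00819). Basp1, whose product resembles that of Gap43 in the growth cone, differed by 0.94 ± 0.35 and was not called (limma, adjusted p = 0.118, and 0.0107 with the replicate block).

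Rest rose from 5.84 ± 0.38 (SD, n = 8) to 7.32 ± 0.26, a 2.79-fold difference in signal from a control mean below the array medians (limma, adjusted p = 8.18e-06). The size depends on the probe set, and with the mean of all Rest probe sets the log2 difference was 0.69 in place of 1.48, still called (limma, adjusted p = 2.87e-05). Of 17 measured neuronal genes known as its targets, 2 rose and 2 fell (23.5%), and the median was −0.05 (3 and 3 were called with the replicate block). The sodium channel subunit gene Scn3b and the glutamate receptor gene Gria2 were 1.70-fold and 1.80-fold higher (limma, adjusted p = 0.000353 and 0.0023). With the mean of its probe sets the log2 difference of Scn3b was 0.43 in place of 0.77, still called. The adhesion gene Nrcam and Vgf, which encodes a secreted granule protein, were 1.88-fold and 1.45-fold lower (limma, adjusted p = 0.0175 and 0.0384). The call of Nrcam was lost with the mean of its probe sets, where the log2 difference was −0.32 in place of −0.91 (limma, adjusted p = 0.0591). That of Vgf was lost with quantile normalisation (limma, adjusted p = 0.0544), with the immune mean as a covariate (0.0583) and in 10 of 16 fits without 1 array (mutant replicates 1, 2, 4, 5, 6 and 7 and control replicates 1, 3, 6 and 8). The synaptic vesicle gene Syp differed by −0.01 ± 0.10 (limma, adjusted p = 0.982).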

How the data were processed

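Per the labels' protocols, biotin-labelled cRNA was made from 150 ng of total RNA (3′ IVT Express) and measured on Affymetrix mouse arrays. The values are log2 signals per probe set as deposited by the authors; their background correction and normalisation are not given in the sources used here, and the log base was taken from the values. Of 45101 probe sets, 34945 named 1 gene, 932 several and 9160 none in the platform annotation, and 64 controls were left out. Symbols were updated to RefSeq for 34741.

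Genotypes were compared in R 4.3.3 with limma 3.58.1 (lmFit and eBayes with trend, no other term), two-sided, with Benjamini-Hochberg adjustment. Only this fit was tested on simulated data, which were drawn independently for each gene and array, unlike the paired arrays here. The p-values set each genotype difference against the spread between these preparations, which in the fit as reported includes that between replicate numbers. Members, lists, tests and alternatives were chosen with earlier results of these data known. Named list genes are up to 4 called per list with the lowest p. Others, such as Tubb3, Dcx, Vim, Krt7, Sox9, Basp1 and Syp, were chosen after their values were seen. Marker means were tested by exact permutation, adjusted over 7 lists.

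Replicate numbers are shared by the groups. Deviations of same-numbered arrays correlated in all 8 pairs (0.237 to 0.735), against a median of −0.10 between other numbers, so the numbers were taken to pair the arrays. The fit as reported and the fits without 1 array do not use this pairing, whereas the fit with the replicate block does. A reversal was counted only where one of both values was called.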

Additional observations from a re-analysis of the deposited data

Results flagged for a closer look

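Among the 10 genes and 7 marker means, 34 groups of 8 arrays were checked for an array far from the others, and 4 were found, where chance gives about 1 in 20. Nefl on mutant replicate 5 read 8.63, with the next mutant array at 6.19. Prph on the same array read 9.21, with the next at 7.38. The immune marker mean of control replicate 1 was 8.07, with the next control at 7.0. The endothelial and stromal marker mean of control replicate 2 was 9.23, with the next control at 8.98.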

How the results depend on the processing

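The comparison as reported called 1594 genes, 1 of the 10 higher (Nefm) and 1 lower (Nefh). The number of genes called was 3200 with the replicate block, 627 with the block and the acinar mean, 238 with the block and the 3′ minus 5′ difference of control probe sets, 828 without pairs 1 to 3, 2398 over 34945 probe sets, and 958 without pairs 5 and 7. Leaving out 1 array gave 1324 to 1645 genes, 0 to 1 of the 10 higher and 0 to 1 lower.

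Of the 10 genes, 3 were called higher with the replicate block (Nefm, Stmn1 and Stmn3) and 2 with the proliferation mean (Nefm and Stmn3), where 0 were called lower. None (0) was called higher with median centring, the mean of probe sets or the acinar mean. With array weights, the block with either covariate, every probe set tested, and without pairs 1 to 3, 0 were called higher and 0 lower. With the immune mean as a covariate, 0 were called lower, while Stmn3 was called in place of Nefm (0.50, adjusted p = 0.0355). Nefm stayed between 0.82 and 1.29 and Nefh between −0.87 and −0.45 over 32 alternatives each, with calls in 11 and 13 of them, and Ina, Prph, Stmn1, Stmn3 and Stmn4 also kept their sign throughout. In the fits with the block, the SE of Nefm was 0.19 alone, 0.40 with the acinar mean and 0.43 with the 3′ minus 5′ difference. The SE of Nefh was 0.14, 0.29 and 0.33 in the same fits. The differences of Nefm with these covariates were 0.84 and 1.29, and those of Nefh −0.45 and −0.49. With the block alone the differences were 0.95 for Nefm and −0.69 for Nefh. With these covariates the SEs were larger and the difference of Nefh was smaller in size. The cause of the lost calls was not tested.

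Of 24 other genes named by rule and called, 6 kept their call in all 32 alternatives (Rest, Tmsb10, Cdk5r1, Ucn3, Pdx1 and Slc2a2) and 18 lost it in at least 1, of which 5 in fits without 1 array (Tubb2b, Kif1a, Cntn1, Vgf and Bhlha15). Dcn and Col1a2, called higher as reported, were at −0.03 and −0.04 when the 3′ minus 5′ covariate was added to the block. Signals below the array medians, as for Nefl and Stmn4, limit what the arrays can show.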
